A study of Homo sapiens with 2 samples.

Results

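The snoRNA host genes of the TOP class examined here were GAS5, SNHG1, SNHG3, SNHG5, SNHG6, SNHG7, SNHG8, SNHG12, SNHG16 and ZFAS1. They were chosen by name, as noncoding genes known to carry small nucleolar RNAs (snoRNAs) in their introns and to belong to the TOP class. The rule uses no measured value. Each name was matched to a single gene ID through the GRCh37 annotation, which gave 10 of the 57736 gene IDs measured.

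Gene expression was measured by RNA-Seq of poly(A)+ RNA from untreated HEK293T cells of wild type genotype, in 1 group of 2 replicates. HEK293T is an established human line, derived from embryonic kidney and expressing the large T antigen of SV40, and both samples share this background. The replicates held 10593491 and 10104118 estimated counts, so 3 counts, the limit that a count of 0 allows, correspond to 0.283 and 0.297 CPM (estimated counts scaled to an equal sum per library). This limit covers counting error only, since copies made by PCR do not count as separate molecules. The labels give kidney as the tissue, but of 12 marker genes of kidney cells only LRP2 and PAX2 reached a TPM of 1 in both replicates, at 9.12 ± 1.19 and 3.41 ± 1.32 (mean ± SD, n = 2), and the tubule marker UMOD had no counts. No condition was compared with another, so the comparisons are between genes and between the libraries. Nothing in the labels says that the replicates came from separate cultures, and the spread between them may be technical.

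A snoRNA host gene is transcribed as a precursor whose introns are cut out and trimmed to snoRNAs, the guides for chemical modification of ribosomal and other RNAs. In noncoding hosts the joined exons carry no long reading frame, and the spliced RNA is in many cases destroyed by nonsense-mediated decay, the pathway that removes RNAs with early stop codons. TOP RNAs, which include the mRNAs of ribosomal proteins, start with a C followed by a run of pyrimidines, and through this start their translation follows growth signals that pass through the kinase mTOR and the RNA-binding protein LARP1.

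The starts of the hosts are shown first because the pyrimidine run defines the TOP class. RefSeq promoter sequences of 9 hosts were at hand, and SNHG6 was not used in this comparison. Each window below runs from 35 bases before the annotated start to 25 bases from it onwards (60 bases, 5′ to 3′ on the strand of the gene, located in GRCh37 by an exact match). The capitals mark pyrimidines that run on from a C within 10 bases of the start and, upstream of them, the letters TATAA of a TATA box. In SNHG7 the pyrimidines of the first marked stretch also continue upstream of these 10 bases, and the second stretch lies within them. Of the windows, 5 hold both, and they are followed by the window of SNHG16, with the run alone, and by a window around another start of GAS5.
SNHG12 (chr1:28908361-28908420, minus strand): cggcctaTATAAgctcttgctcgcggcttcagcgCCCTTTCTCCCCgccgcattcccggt
SNHG5 (chr6:86388427-86388486, minus strand): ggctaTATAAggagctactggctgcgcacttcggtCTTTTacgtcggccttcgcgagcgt
SNHG7 (chr9:139622612-139622671, minus strand): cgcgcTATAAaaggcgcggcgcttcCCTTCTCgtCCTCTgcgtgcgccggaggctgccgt
SNHG8 (chr4:119199882-119199941, plus strand): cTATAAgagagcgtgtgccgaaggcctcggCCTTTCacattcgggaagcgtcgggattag
ZFAS1 (chr20:47895144-47895203, plus strand): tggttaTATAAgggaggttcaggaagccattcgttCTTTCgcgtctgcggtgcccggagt
SNHG16 (chr17:74553811-74553870, plus strand): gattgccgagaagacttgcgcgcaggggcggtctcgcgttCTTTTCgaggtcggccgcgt
GAS5, most frequent transcript start (chr1:173837103-173837162, minus strand): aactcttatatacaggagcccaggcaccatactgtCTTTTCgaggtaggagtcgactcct

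A C with at least 4 further C or T bases, on the strand of the gene with that C within 10 bases of the RefSeq start, was found in 6 of 9 hosts, namely SNHG5, SNHG7, SNHG8, SNHG12, SNHG16 and ZFAS1. The same letters were present in 33.3% of all 27305 promoters, in 35.8% of 584 promoters of the other lncRNA genes detected, and in 84.1% of 69 promoters of cytosolic ribosomal protein genes. With the C exactly at the annotated start, the letters were found in SNHG5, SNHG12 and ZFAS1, in SNHG12 as the second base of its run, against 4.04% of all promoters and 63.8% of those of ribosomal protein genes. A run of at least 7 further pyrimidines was found in SNHG12 alone of the 9, against 9.08% of all promoters. When the start was allowed to lie within 25 bases, all 9 hosts held a run, but so did 56.3% of all promoters.

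The count depends on which start is taken. For GAS5 the RefSeq start lies 1056 bp upstream of a start shared by 11 of its 29 annotated transcripts, and a run of 6 pyrimidines begins at this second start itself. In SNHG3 a start used by 1 of 3 transcripts lies within a run of 13 pyrimidines that begins 6 bases before it. With the most frequent transcript start of each gene, an alternative chosen after the data were seen, and the outermost start where starts tie, 7 of 10 hosts held a run, against 28.4% of 55191 genes. In SNHG3 and SNHG8 every start belongs to 1 transcript, so the tie decides. A run was held by 1 of 3 starts of SNHG3, though not by the outermost, and by 4 of 5 starts of SNHG8. Of the 8 hosts with a single most frequent start 6 held a run, and SNHG5 and ZFAS1 did not. In GAS5, SNHG6 and SNHG12 the C lay exactly at this start, against 2.21% of all genes. A match is a matter of letters in these windows and no start site was mapped by the RNA-Seq data.

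The letters TATAA, searched on the strand of the gene from 40 to 20 bases before the RefSeq start after the windows had been seen, were found in SNHG5, SNHG7, SNHG8, SNHG12 and ZFAS1. These 5 of 9 stand beside 4.07% of all 27305 promoters, 11.6% of the promoters of ribosomal protein genes and 2.4% of those of the other lncRNA genes detected. The letters were also found in 2 of 7 coding TOP mRNAs outside ribosomal proteins, in 4 of 10 kidney marker genes and in 0 of 12 nonsense-mediated decay factors. Over all annotated transcript starts they were found at 14.8% of 61 host starts, against 2.08% of the starts of all genes. In the 5 hosts the first base of TATAA lies 34 bases before the RefSeq start in SNHG8 and from 28 to 30 bases before it in the other 4.

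All 10 hosts were detected, that is, they reached a TPM (the share of a transcript in the library, a level scaled by transcript length) of at least 1 in both replicates. This threshold was passed by 27.7% of all gene IDs and by 12.4% of 12805 lncRNA genes. The median of the mean TPM over the hosts was 91.7, against 2.85 over the 1574 other lncRNA genes detected and 14.7 over all 15997 detected genes. The median of the hosts thus lay 32.2-fold above that of the other lncRNA genes, or 5.01 on the log2 scale. In bulk RNA fewer cells with a transcript and less of it per cell cannot be told apart. The highest and the lowest host differed 6.29-fold.

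**Figure D1:**
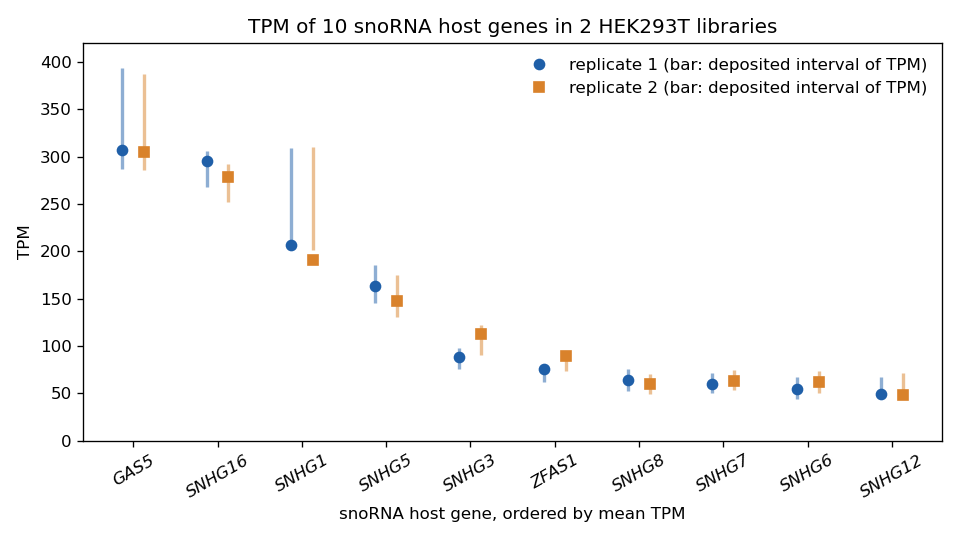
TPM of the 10 hosts (vertical axis, linear) in replicate 1 (circles) and replicate 2 (squares), ordered by mean TPM, with the interval of TPM that the authors deposited for each library as a bar. The points run from 306 TPM for GAS5 to 48.6 TPM for SNHG12 on average, and the points of SNHG1 lie below their own bars.

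GAS5 and SNHG16 had the highest levels. GAS5, first described as a transcript that accumulates in growth-arrested cells, hosts mainly box C/D snoRNAs, the class that guides 2′-O-methylation (chr1:173827697-173838020, minus strand). Its TPM was 307 in replicate 1 and 305 in replicate 2, 306 ± 2.04 on average (SD, n = 2). SNHG16, the host of the SNORD1 family (chr17:74553809-74667067, plus strand), reached 295 and 279 TPM, or 287 ± 11.6 (SD, n = 2). The replicate values of the 2 genes did not overlap, although the means differed by only 1.07-fold and the deposited intervals of TPM overlapped.

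SNHG1 and SNHG5 followed. SNHG1, the host of SNORD22 and of 7 further box C/D snoRNAs by name (chr11:62619450-62623425, minus strand), had a TPM of 207 and 191, or 199 ± 11.5 (SD, n = 2). SNHG5, the host of SNORD50A and SNORD50B (chr6:86360209-86388650, minus strand), had 163 and 148 TPM, or 156 ± 10.7 (SD, n = 2). Both replicates of SNHG1 lay above both of SNHG5, and here the deposited intervals were also apart in both libraries. The order of SNHG1 carries a limit. Its TPM lay below its own interval in both libraries, which ran from 209 to 309 and from 201 to 310, and the deposited posterior mean was 257 and 253 TPM. SNHG1 was the only host with a TPM outside its own interval in either replicate, which was the case for 14.5% of detected genes.

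SNHG3 hosts SNORA73A and SNORA73B of the box H/ACA class, which guides pseudouridylation in most of its members (chr1:28832492-28837404, plus strand). It was the least even of the hosts in TPM, with 88.2 in replicate 1 and 113 in replicate 2, or 100 ± 17.4 (SD, n = 2). ZFAS1, which lies head to head with the gene ZNFX1 and hosts the SNORD12 family (chr20:47894715-47916137, plus strand), had 75.9 and 90.0 TPM, or 82.9 ± 9.98 (SD, n = 2). The values of SNHG3 and ZFAS1 overlapped, so their order is not set. SNHG3 stayed below SNHG5 in both replicates, with intervals apart.

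The remaining hosts lay close together. SNHG8, the host of SNORA24 (chr4:119199858-119206471, plus strand), had 64.3 and 59.7 TPM, or 62.0 ± 3.25 (SD, n = 2). SNHG7, the host of SNORA17A and SNORA17B (chr9:139615818-139622636, minus strand), had 60.3 and 63.5 TPM, or 61.9 ± 2.27 (SD, n = 2). SNHG6, the host of SNORD87 (chr8:67832796-67838633, minus strand), had 55.0 and 62.0 TPM, or 58.5 ± 4.99 (SD, n = 2). The replicate values of SNHG8 and SNHG7 overlapped, and so did those of SNHG7 and SNHG6. SNHG12, with 3 box H/ACA snoRNAs and SNORD99 (chr1:28905050-28909644, minus strand), was the lowest at 48.9 and 48.3 TPM, or 48.6 ± 0.474 (SD, n = 2). Of the 9 pairs of neighbours in the order, 6 had replicate values that did not overlap, but the deposited intervals were apart in both libraries for SNHG1 over SNHG5 and SNHG5 over SNHG3 alone.

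**Figure D2:**
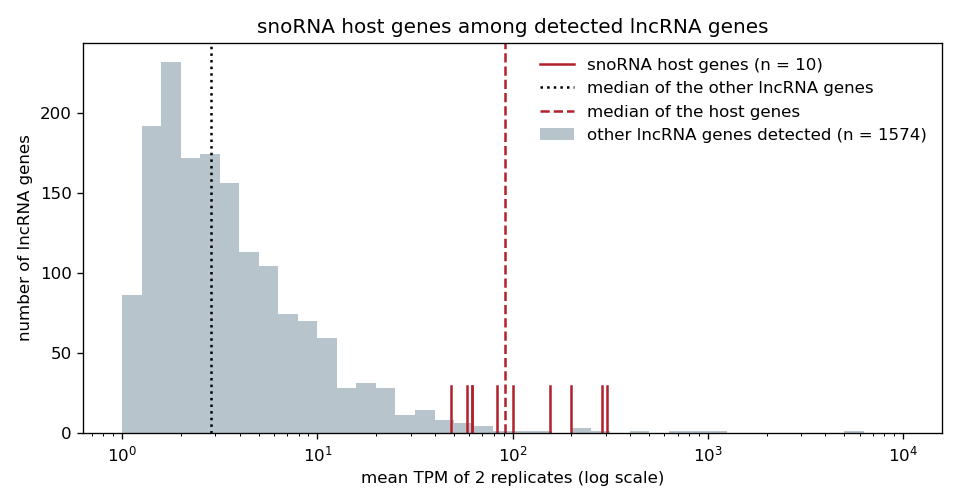
Number of lncRNA genes (vertical axis) by mean TPM of the 2 replicates (horizontal axis, log scale) for the 1574 other lncRNA genes detected (grey bars), with each host as a short red line and the medians as a dotted line (others, 2.85 TPM) and a dashed line (hosts, 91.7 TPM). The hosts all lie in the upper tail, from 48.6 TPM upwards.

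Among the 1584 lncRNA genes detected, GAS5 ranked 6, SNHG16 ranked 7 and SNHG12, the last of the hosts, ranked 33. The 20 highest lncRNA genes included 6 hosts, and all 10 were among the 50 highest. The 10 genes together held 1366 TPM in replicate 1 and 1359 TPM in replicate 2, which was 6.19% and 5.89% of the TPM of all lncRNA genes. In estimated counts, which are not scaled by length, they held 10167 and 9347 counts, or 4.46% and 4.25% of the counts of lncRNA genes and 0.096% and 0.0925% of all counts. Their transcripts were short, with a median length of 719 nt as weighted by RSEM, the program that made the tables, against 794 nt for the other lncRNA genes detected and 1824 nt for all detected genes.

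Length reordered the hosts between the units. By CPM, which is not scaled by length, SNHG16 came first with 399 ± 26.6 (SD, n = 2). GAS5 with 126 and 133 CPM and SNHG3 with 129 and 126 CPM followed, and their order is not set because the replicate values overlapped. SNHG16 had a weighted length of 2058 nt in replicate 1 and 1966 nt in replicate 2, against 630 and 664 nt for GAS5. SNHG12 moved from last by TPM to position 6 by CPM, at 35.5 ± 1.33 CPM, with lengths of 1105 and 1055 nt. SNHG6 and SNHG8, with lengths from 421 to 454 nt, were the lowest by CPM, at 16.1 ± 1.03 and 17.1 ± 0.229.

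The replicates were then compared to see how well each level is set. The share of a gene's rounded counts in each library was tested by an exact binomial test (two-sided, expected shares from TMM-scaled library sizes), with Benjamini-Hochberg adjustment over 17920 genes, which compares 2 libraries and not conditions. At an adjusted p of 0.05 it called 3.88% of the genes and 1 of the 10 hosts. This host was SNHG16, with 4429 counts in replicate 1 and 3844 in replicate 2, a log2 ratio of -0.13 (95% interval -0.19 to -0.06, adjusted p = 0.0041 in the exact test). Across the alternatives its adjusted p lay between 0.000241 and 0.00702. It was also the host with the most counts.

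ZFAS1 and SNHG5 had count ratios larger in size than that of SNHG16, but with fewer counts. ZFAS1 had 297 and 340 counts, a log2 ratio of 0.27 (95% interval 0.04 to 0.50), with p = 0.0174 before and 0.209 after adjustment of the exact test. SNHG5 had 548 and 453 counts, a log2 ratio of -0.20 (95% interval -0.38 to -0.01), with p = 0.0341 before and 0.308 after adjustment of the exact test. Neither passed the threshold. The counts of the other 7 hosts had log2 ratios from -0.07 to 0.14 and adjusted p of 0.516 or more in the exact test. The sign of the difference was mixed, with 6 hosts higher in replicate 2 and 4 in replicate 1. The median size of the log2 count ratio was 0.0793 over the hosts and 0.0619 over the 2919 genes in the same range of TPM.

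**Figure D3:**
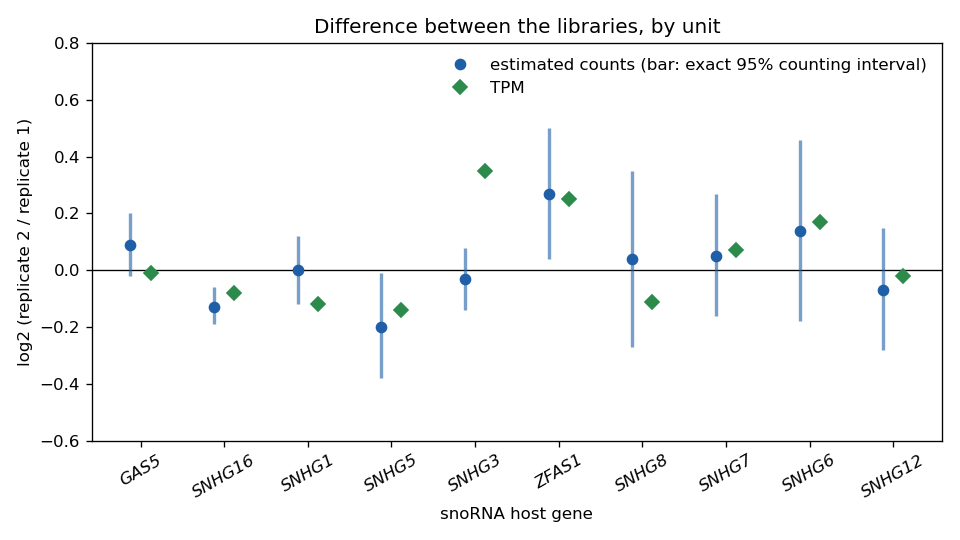
Log2 ratio of replicate 2 to replicate 1 for each host, in estimated counts (circles, with the exact 95% counting interval as a bar) and in TPM (diamonds). SNHG3 stands at -0.03 in counts but at 0.35 in TPM, while ZFAS1 is near 0.27 and 0.25 in both.

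SNHG3 differed between the libraries in TPM and not in counts. It had 1372 and 1273 counts, a log2 ratio of -0.03 with the scaled library sizes (95% interval -0.14 to 0.08, adjusted p = 0.929 in the exact test), whereas its TPM had a log2 ratio of 0.35. The transcript length by which its TPM is scaled was 2133 nt in replicate 1 and 1620 nt in replicate 2, a log2 ratio of -0.41. This length is the mean over the 4 transcripts of SNHG3 in the tables, weighted by how reads were assigned to them. In ZFAS1 the length was 573 and 574 nt, and the TPM (log2 ratio 0.25) moved as the counts did. The sign of the difference also turned between units in GAS5, SNHG1 and SNHG8. By counts these were higher in replicate 2, with log2 ratios of 0.09, 0.00 (a rounded value just above 0) and 0.04. By TPM they were lower in replicate 2 (-0.01, -0.12 and -0.11). Over the hosts the median size of the log2 TPM ratio was 0.113, against 0.0881 in the same range of TPM and 0.156 over all detected genes.

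How far the hosts share reads with other genes was read from the deposited counts. A count that is not whole shows that reads fitting more than 1 gene were shared out between them, and this was found in 6 of 10 hosts (SNHG3, SNHG6, SNHG7, SNHG12, SNHG16 and ZFAS1). Whole counts in both replicates were found in the other 4, GAS5, SNHG1, SNHG5 and SNHG8, and in 48.5% of all detected genes. The posterior SD, the uncertainty that this sharing leaves in a count, was highest in SNHG7, with 4.33 of 353 counts and 3.77 of 347 counts, or 1.23% and 1.09%. In SNHG3 it was 7.04 and 6.13 counts, or 0.513% and 0.482%, and in the other hosts it was at most 0.233%.

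In 4 of these 6 hosts an overlapping gene had a posterior SD within 0.1 counts of that of the host in both replicates, a match that was looked for after the values were seen. For SNHG3 this was RCC1, which encodes an exchange factor for the GTPase Ran, with 6.98 and 6.08 counts. For SNHG7 it was DIPK1B with 4.30 and 3.74, for SNHG16 it was ST6GALNAC2 with 5.11 and 4.52, and for SNHG6 it was MCMDC2 with 0.38 and 0.23, exactly the values of SNHG6. RCC1 lies on the same strand as SNHG3, and the other 3 genes lie on the strand opposite to their host. No source used here states whether strand entered the counting, and without strand the reads of overlapping genes on opposite strands cannot be told apart. How often overlapping genes match in posterior SD over all genes was not counted.

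The genes next to the hosts were at very different levels. RCC1 starts 37 bp from SNHG3 on the same strand and had a TPM of 184 ± 9.93 (SD, n = 2), above its host neighbour at a ratio of host to gene of 0.545. It was the only measured overlapping or head-to-head gene with a level above that of the host. SLC3A2, the heavy chain of amino acid transporters, starts 51 bp from SNHG1 on the opposite strand and had 110 ± 5.24 TPM, so SNHG1 was 1.81-fold higher. ZNFX1 starts 248 bp from ZFAS1 and overlaps it on the opposite strand, and with 7.82 ± 0.269 TPM it lay 10.6-fold below ZFAS1.

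GAS5 was overlapped on the opposite strand by ZBTB37, which starts 800 bp from the start of GAS5 in GENCODE and had 4.56 ± 0.438 TPM. GAS5 exceeded it 67.1-fold. Its antisense transcript GAS5-AS1 had 3.92 ± 0.552 TPM. There were 2 hosts that overlapped a coding gene on the opposite strand at a like level, SNHG12 with TRNAU1AP at 38.7 ± 2.87 TPM (ratio 1.26) and SNHG7 with DIPK1B at 53.1 ± 4.69 TPM (ratio 1.17). The spans of SNHG12 and TRNAU1AP meet only at their ends, over chr1:28905050-28905057. PRSS12 lay below SNHG8 8.83-fold, ST6GALNAC2 below SNHG16 136-fold and MCMDC2, at 0.12 TPM, below SNHG6 487-fold.

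The snoRNAs inside the hosts were examined next. RefSeq places 38 snoRNA genes within the 10 hosts, 28 of them named as box C/D and 9 as box H/ACA, with 11 in GAS5 and 9 in SNHG1. Of these, 7 could be matched to a row of the tables by their GRCh37 annotation, inside a host and on its strand, and the remaining ones were not analysed here. All 7 lay wholly within introns of each annotated host transcript that spans them. The sequences of 4 box C/D snoRNAs are shown because their rows held reads and their boxes were found. The capitals mark box C (TGATGA) near the 5′ end and box D (CTGA) near the 3′ end, in GRCh37 sequence on the strand of the host.
SNORD12 in ZFAS1 (chr20:47897220-47897309, plus strand): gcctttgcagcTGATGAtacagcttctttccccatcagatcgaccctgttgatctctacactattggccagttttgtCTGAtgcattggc
SNORD12B in ZFAS1 (chr20:47896856-47896946, plus strand): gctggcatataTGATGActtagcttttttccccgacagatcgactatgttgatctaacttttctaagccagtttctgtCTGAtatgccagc
SNORD12C in ZFAS1 (chr20:47895477-47895565, plus strand): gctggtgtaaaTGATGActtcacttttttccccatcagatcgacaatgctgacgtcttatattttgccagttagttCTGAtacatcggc
SNORD1B in SNHG16 (chr17:74557191-74557274, plus strand): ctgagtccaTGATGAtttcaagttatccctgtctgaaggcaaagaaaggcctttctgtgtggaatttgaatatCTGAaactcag

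The longest stretch that the 3 snoRNAs of ZFAS1 share without a difference has 9 bases, cagatcgac, and lies between their boxes. Both boxes, searched within 20 nt of the ends, were found in 51.9% of 389 snoRNAs named as box C/D and in 0 of 398 named as box H/ACA. In SNORD78 of GAS5 and SNORD99 of SNHG12 only the letters of box D were found.

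Few reads lay in the snoRNA rows. Of the 7, 6 had at least 1 estimated count in both replicates, which was reached by 10.2% of 1457 snoRNA rows in the tables, and SNORD78 had 0 counts in both. SNORA73B of SNHG3 held most of them, with 35.9 and 37.3 counts, or 2.62% and 2.93% of the counts of its host. SNORA73B also lies within RCC1 on the same strand, which had 3249 and 2870 counts. From which of these precursors its reads came was not tested. SNORD12B had 5 counts in each replicate, SNORD12 had 2 and 6, and SNORD12C had 1 and 1, against 297 and 340 counts for ZFAS1. SNORD99 had 1 and 2 counts, and SNORD1B had 1 in each against 4429 and 3844 in SNHG16. Apart from SNORA73B and SNORD12B, each of these rows had 3 counts or fewer in at least 1 library, which is no more than the limit that a count of 0 allows.

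TPM gives another picture of these rows because it is scaled by a very short length. The single count of SNORD1B in replicate 1 amounted to 3.74 TPM, and the 5 counts of SNORD12B to 15.7 TPM. SNORA73B, at 204 nt the longest of the 7, had 30.9 and 33.3 TPM, or 32.1 ± 1.75 (SD, n = 2). Mature snoRNAs have no poly(A) tail and poly(A)+ RNA was sequenced, so these counts are no measure of the amount of mature snoRNA.

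The genes that act on hosts or on their snoRNAs were expressed throughout. Of the proteins of the mature particles, all 4 of the box C/D core were detected, with a median of 355 TPM, namely NOP56 at 496 ± 39.3, the methyltransferase FBL at 482 ± 2.00, NOP58 at 227 ± 7.17 and SNU13 at 200 ± 9.70 (SD, n = 2). All 4 of the box H/ACA core were detected too, with a median of 179 TPM, from 70.6 ± 5.97 for GAR1 to 319 ± 4.30 for NHP2, with 224 ± 17.0 for the pseudouridine synthase DKC1 and 133 ± 11.7 for NOP10. The assembly factors were lower, with 8 of 8 measured detected, a median of 45.9 TPM, and a range from 15.3 for NUFIP1 to 140 for the ATPase RUVBL1. For the processing of introns and of snoRNA 3′ ends the median was 54.9 TPM over 8 of 8 genes, with the exosome nuclease DIS3 highest at 103 ± 2.15, the debranching enzyme DBR1 at 25.1 ± 1.97 and the poly(A) polymerase TENT4B lowest at 20.4 ± 1.3.

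**Figure D4:**
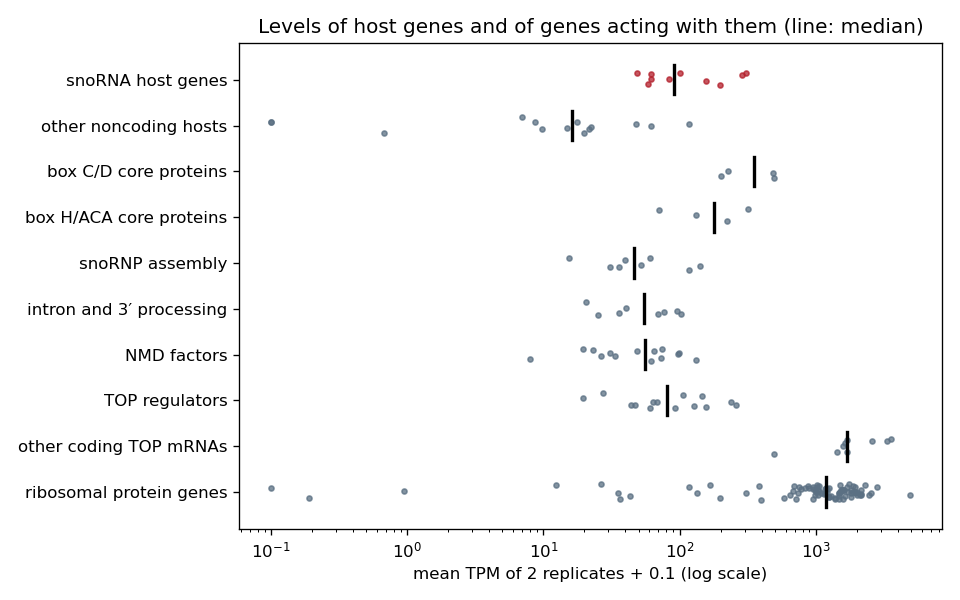
Mean TPM of the 2 replicates plus 0.1 (horizontal axis, log scale) for each gene of 10 lists, with a black line at the median of each list. The median of the hosts (red, 91.7 TPM) lies above that of the other noncoding hosts (16.1 TPM) and below that of the ribosomal protein genes (1195 TPM).

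Factors of nonsense-mediated decay had a median of 55.2 TPM, with 14 of 14 measured detected, from 7.82 for UPF3A to 131 for EIF4A3, and with the helicase UPF1 at 64.8 ± 4.22. Genes that act on the translation of TOP RNAs had a median of 80.4 TPM, with 14 of 14 detected, CNBP highest at 259 ± 1.25, LARP1 at 239 ± 10.8, MTOR at 43.8 ± 3.66 and TSC1 lowest at 19.4 ± 1.33 (SD, n = 2). The median of the hosts, 91.7 TPM, lay below those of the coding RNAs of the TOP class. Ribosomal protein genes had a median of 1195 TPM over 86 genes, of which 83 were detected, with RPS2 highest at 4930 ± 8.14, and 9 of 9 other coding TOP mRNAs were detected with a median of 1687 TPM, from 494 for EEF1B2 to 3561 for EEF1A1. The ranges crossed, since 8 of the 86 ribosomal protein genes lay below SNHG12, the lowest host, and 74 lay above GAS5, the highest. These 86 genes were taken by gene symbol, so membership of the TOP class was not checked for each. The 8 include the genes that were not detected, among them RPS4Y1 with 0 counts. GAS5 was below EEF1B2.

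The noncoding snoRNA hosts outside the 10 were lower in the median, at 16.1 TPM over 14 measured genes, of which 11 were detected. Their levels crossed those of the 10 all the same. DANCR, at 118 ± 3.90 TPM, lay above SNHG3 on average, and SNHG17, at 61.6 ± 0.0707 TPM, beside SNHG7. SNHG15 had 47.4 ± 6.98 TPM, near SNHG12. SNHG18 had no counts, and SNHG14 had 0.58 ± 0.17 TPM. A run of pyrimidines within 10 bases of the start was found in 7 of 12 of these genes with a promoter sequence, against 6 of 9 hosts, and TATAA upstream of it in 1 of 12, against 5 of 9. In the exact binomial test between the libraries 0 of the 12 of these genes that were tested passed the threshold. FBL of the box C/D core and SMG1 of the decay factors did, with log2 count ratios of -0.12 (adjusted p = 0.0482 in the exact test) and 0.15 (adjusted p = 0.00132 in the exact test). Among the coding RNAs of the TOP class, 11 of 84 ribosomal protein genes and 2 of 9 others passed it, which were EEF1A1 and EEF2. EEF1A1 had 39492 and 39618 counts at a log2 ratio of 0.08, and EEF2 had 37307 and 33317 at -0.09. With so many counts the exact test calls small ratios, so these shares are no measure of how much such genes vary. The numbers called in these lists stand beside 3.88% of all genes tested.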

How the data were processed

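RNA-Seq tables of 2 HEK293T libraries, sequenced with 50 bp reads, were analysed. Per the labels the authors used Trimmomatic 0.36, STAR 2.6.1c and RSEM 1.3.1 with GRCh37. The methods name featureCounts, but the deposited columns are those of RSEM. Estimated counts as deposited by the authors share out reads that fit several genes. The deposited TPM and FPKM values correct for transcript length. The posterior SD, the posterior means and the interval bounds are scores deposited by the authors. A deposited table of the authors' pooled values served as an alternative.

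Symbols and coordinates came from GENCODE 44 mapped to GRCh37, which matched 96.1% of IDs. Promoter sequences and snoRNA names came from RefSeq tables, the former without SNHG6, and snoRNA sequences from the GRCh37 genome at GENCODE coordinates. Of the 15 nonsense-mediated decay factors, 15 other hosts and 10 assembly factors listed, 14, 14 and 8 had a row. Counts were rounded, normalized by TMM (edgeR 4.0.16, R 4.3.3) and tested between the libraries with the two-sided exact binomial test of scipy 1.17.1, and p-values were adjusted by Benjamini-Hochberg for all genes with 10 or more counts in the sum of both. The test was checked on simulated data. Detection required that each replicate reach a TPM of 1, and a count was taken as whole within 0.001.

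The choice of the 10 genes uses no measured value, but these genes, the lists and the rule for naming were chosen with earlier results of these data known. All hosts, the snoRNA rows with the highest count in each host or with a sequence shown, overlapping and head-to-head genes, and at most 4 genes of each list could be named. Alternatives were other units, thresholds, normalizations and definitions, and leaving out each replicate.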

Additional observations from a re-analysis of the deposited data

How the results depend on the processing

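The median TPM of 91.7 over the hosts became 64.9 in FPKM and 41.9 in CPM, which are other units, and 119 without SNHG3 and SNHG7, an alternative chosen after the data were seen. Leaving out each replicate gave 82 to 101. The log2 ratio to the other lncRNA genes, 5.01, was 4.66 in FPKM, 5.26 with posterior mean TPM, 4.51 in CPM and 4.58 as a difference of medians of log2(TPM + 1). It was 6.68 over lncRNA genes with a TPM above 0 and 3.20 over those of at least 5 in both replicates, since the threshold sets which genes are compared. With each replicate left out, which leaves the lone library to set detection, it was 5.13 to 5.46. The median of the hosts lay above that of the other lncRNA genes in each of these.

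Of the 6 hosts with shared reads, 0 had a posterior SD above 5% of the count, and leaving out each replicate gave 5 to 6. The 6 hosts with a pyrimidine start became 3 with the run exactly at the start and 1 with at least 7 further pyrimidines, which are stricter definitions. The single host called between the libraries was SNHG16 in all 5 other settings of the test. In all, 23 of 36 alternatives changed no result beyond the spread or 1.5-fold. No paired analysis was possible because there was 1 group. The exact test had 1 library a side, so it holds no spread between cultures, and at 163 to 548 counts a difference like that of SNHG16 is within counting error.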

Other observations

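The annotation holds other genes that carry snoRNAs. Of 407 protein-coding genes with a snoRNA row inside them on the same strand, 332 (81.6%) were detected, against 63.7% of all protein-coding genes, and the detected ones had a median of 36.5 TPM, against 21.2. Of 84 lncRNA genes with such a row, 21 (25%) were detected, against 12.4% of all lncRNA genes, with medians of 17.4 and 2.88 TPM. Of the 10 hosts described here, 5 are among these 84 lncRNA genes. These 5 are also among the 21 detected, each above the median of 17.4 TPM, and the values without them were not computed. The genes with a snoRNA row were also longer, with a median genomic span of 72674 bp against 27664 bp for protein-coding genes and 64231 bp against 6736 bp for lncRNA genes, and the part of this length in the difference was not tested.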
